A study of Mus musculus with 16 samples.

Results

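The genes of oxidative phosphorylation (OXPHOS) were followed through bulk RNA sequencing of mouse inguinal white adipose tissue (iWAT), the subcutaneous fat depot of the groin. The members were all protein-coding rows of the deposited expression table whose symbols name a subunit of complexes I to V (Nduf, Sdh, Uqcr, Cox4 to Cox8, Atp5, and the mt- genes), without the muscle and thermogenic forms Cox7a1, Cox8b and Cox6a2. This gave 95 of 54532 genes, of which 82 were nuclear and 13 lay on the mitochondrial genome, named mt- here. The nuclear members comprised 35 of complex I, 4 of complex II, 8 of complex III, 17 of complex IV and 18 of complex V, and the mt- members 7, 0, 1, 3 and 2 in the same order. Some members are not structural subunits: Cox7a2l encodes an assembly factor of respiratory supercomplexes, and Atp5s an accessory factor. Ndufa4 and Ndufa4l2 were counted in complex IV, where the Ndufa4 protein is now placed.

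The 16 libraries fell into 4 groups of 4, all from male mice. Has2_TG were Apn-Has2 mice, which carry the hyaluronan synthase Has2 behind a TRE promoter, and Has2_WT were their littermate Apn-rtTA controls. PH20_TG were Apn-PH20 mice, which carry the hyaluronidase PH20 (gene Spam1) behind the same promoter, with PH20_WT as littermate Apn-rtTA controls. The Adiponectin-rtTA driver, on which the transgenes depend, is active in adipocytes and needs doxycycline. All mice, controls included, ate chow with 200 mg/kg doxycycline for 5 days, and experiments began at 8 to 10 weeks of age. The RNA came from the whole depot, so that in these bulk samples fewer cells of a type and less RNA per cell cannot be told apart. The comparisons ask whether making more hyaluronan, or digesting it, went with another level of OXPHOS transcripts.

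Complexes I to IV pass electrons from NADH and succinate to oxygen and, apart from complex II, pump protons across the inner mitochondrial membrane, and complex V uses the gradient to make ATP. Complex II is built from nuclear genes alone, while the other complexes join nuclear subunits with subunits encoded in the mitochondrial DNA, so that transcripts of both genomes are needed. White adipocytes hold few mitochondria, and beige adipocytes, which burn fuel as heat through the uncoupler Ucp1, hold many.

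The libraries held 14421692 to 26751729 reads on genes, and 7.51% to 13.6% of them fell on the mitochondrial chromosome. The Has2 transcript was at 1.86 to 3.24 FPKM (reads scaled to gene length and library total) in Has2_TG and at 0.417 to 0.806 FPKM in Has2_WT. It was also at 3.32 and 3.26 FPKM in PH20_TG1 and PH20_TG4. Spam1 had reads in 3 of the 4 PH20_TG libraries (0.136 to 0.324 FPKM) and none in the library labelled PH20_TG1, which allows for up to 3 reads there. Adipocyte genes were abundant in all 16 libraries (Adipoq 751 to 1747.6 FPKM), while keratinocyte genes summed to at most 15.1 FPKM. The summed skeletal muscle genes ranged from 37.3 to 1240.2 FPKM, and the 10 B cell genes summed to 129 to 346 FPKM in 4 control libraries (Has2_WT1, Has2_WT2, PH20_WT1 and PH20_WT3) but to at most 6.53 FPKM in the other 12. The part of these other cell types in the OXPHOS values was not tested.

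The nuclear OXPHOS genes differed widely in level. Across 16 libraries the mean FPKM of the 79 nuclear members with reads had a median of 95.4. Cox8a, a small subunit of cytochrome c oxidase, was highest (1056 FPKM), and Cox6a1, another one, reached 914 FPKM. Medians by complex ran from 73.9 FPKM in complex V and 81.7 in complex I to 136 in IV, 139 in II and 171 in III. Ndufb2, an accessory subunit of complex I, was lowest (1.88 FPKM). FPKM divides by gene length, and the length listed for Ndufb2 is 5628 bases, the sum of all its annotated exons, which lowers its value. Its reads were few as well, with a mean of 197. Ndufb7, listed with 4522 bases, had a mean of 2330.9 reads and 27.6 FPKM. Of the members, 3 had no read in any library: Cox7b2 and Cox8c, forms of complex IV subunits known from testis, and a second row of Atp5o whose exons lie entirely within exons of other genes. Cox6b2, likewise known from testis, had a mean of 37.6 reads and mt-Atp8 of 26.8, and both stayed under the minimum of 50 reads that a gene needed to be tested, which left 78 nuclear and 12 mt- members.

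Paralogous subunits were listed at unequal levels. Among the genes of the membrane ring subunit c of ATP synthase, which encode one and the same mature protein, Atp5g3 had a mean of 148 FPKM, Atp5g2 of 73.9 and Atp5g1 of 4.60. Of subunit 4 of complex IV, the common form Cox4i1 was at 543 FPKM and the form Cox4i2, known from lung and low oxygen, at 4.36. Cox6b1 was at 440 FPKM against 1.92 for Cox6b2, and Cox7b at 115 FPKM. Ndufa4 was at 228 FPKM and Ndufa4l2, a target of the low-oxygen response, at 9.21. The forms left out as muscle or thermogenic were not rare here: Cox8b ranged from 82.1 to 976 FPKM and Cox7a1 from 7.69 to 101 FPKM, against 563 to 1656 FPKM for Cox8a and 79.3 to 236 for Cox7a2. Cox6a2, the muscle form of Cox6a1, was between 0 and 12.5 FPKM. Sequence shared with other genes limits some of these values: 34.7% of the stretches of 100 bases in Atp5g2 occur in another annotated gene, 27.9% in the main Atp5o row and 24.0% in Ndufb6 and in Ndufa13, while 51 of the 82 nuclear members share none.

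The spread within groups was large, and it ran through nearly all nuclear members at once. Their summed level in Has2_WT was 7756, 12141, 17762 and 10256 FPKM in replicates 1 to 4. In Has2_TG it was 10926, 13590, 6995 and 9284 FPKM. In PH20_WT the sum was 7473, 11934, 10286 and 13328 FPKM, and in PH20_TG 8386, 10711, 16952 and 12161 FPKM. Has2_WT3 and PH20_TG3 were thus the highest libraries, Has2_TG3, PH20_WT1 and Has2_WT1 the lowest, and each pair of groups overlapped. The lowest and the highest library differed 2.54-fold, while the group means lay between 10199 ± 2777 FPKM in Has2_TG and 12052 ± 3618 FPKM in PH20_TG (SD, n = 4). The heat map of single genes shows the same libraries standing out across complexes.

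**Figure D1:**
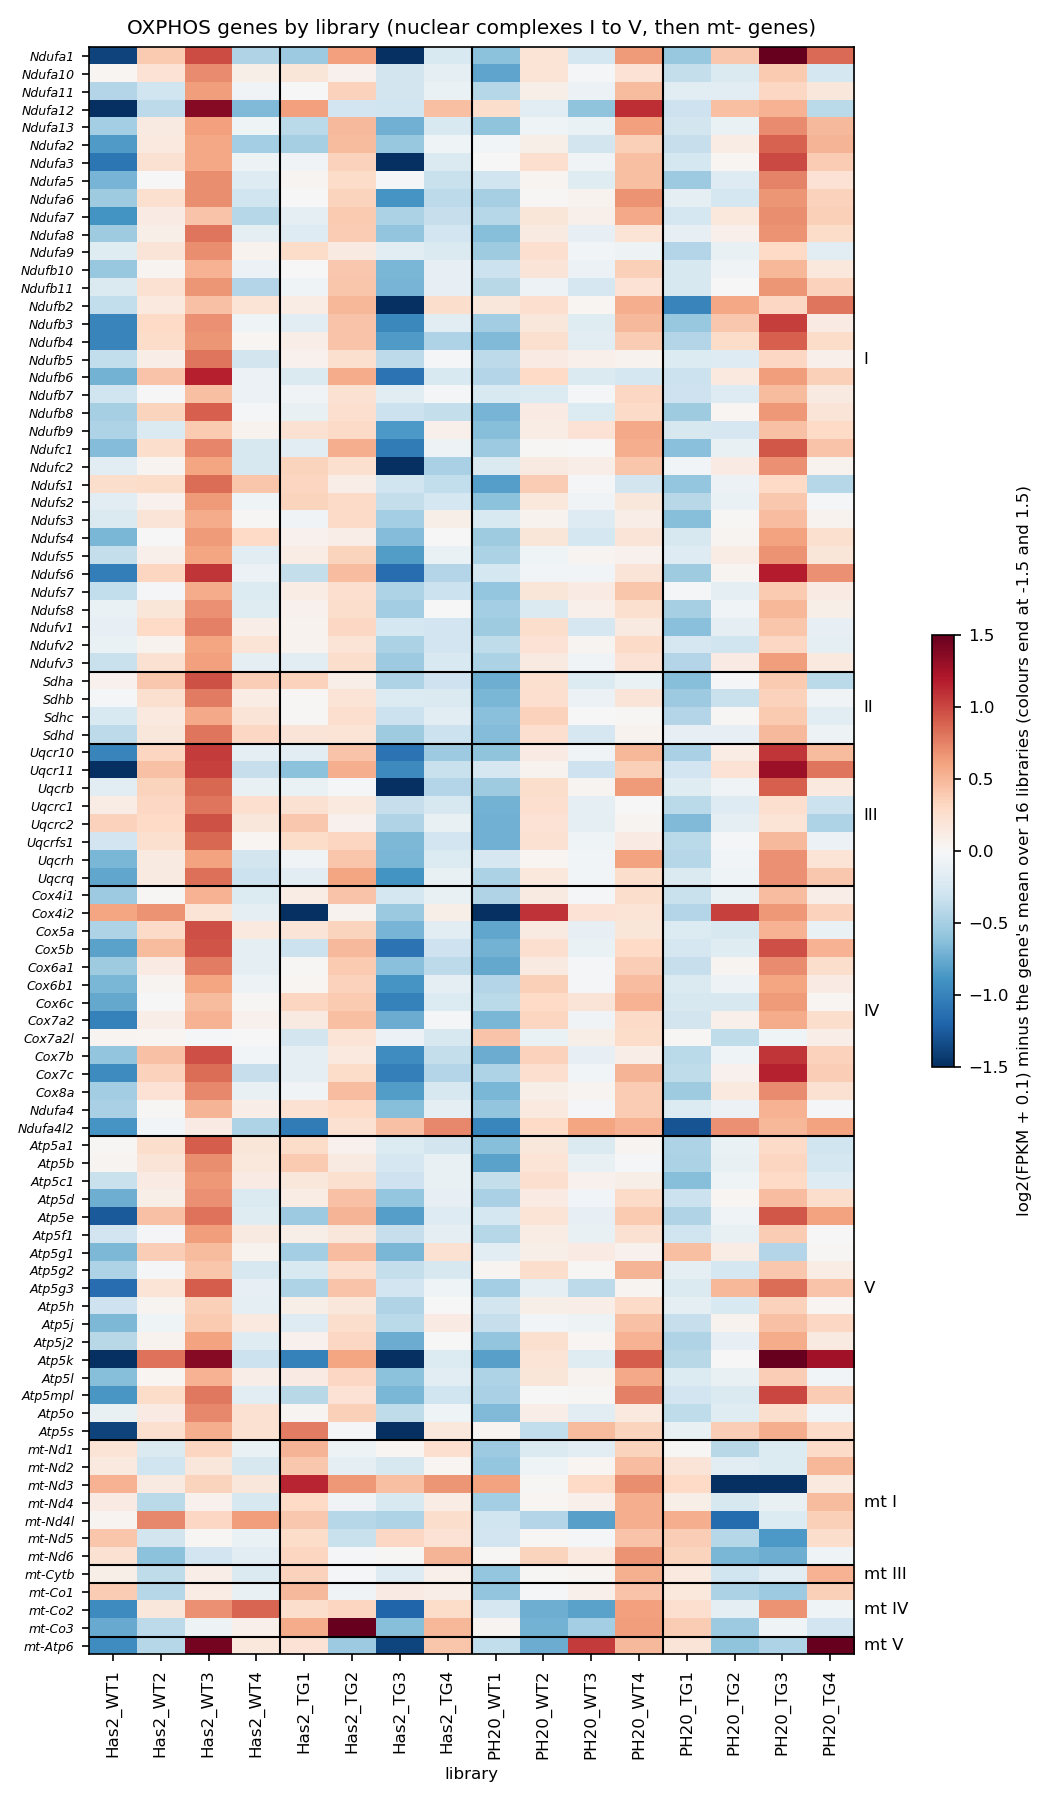
Heat map of the 90 tested OXPHOS genes (rows, by complex, nuclear above mt-) in 16 libraries (columns, by group). Colour is log2(FPKM + 0.1) minus the gene's mean. Columns Has2_WT3 and PH20_TG3 are mostly red, and Has2_WT1, Has2_TG3 and PH20_WT1 mostly blue, in the 5 nuclear complexes, a pattern that the mt- rows do not follow.

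The nuclear members varied together from library to library. Over 16 libraries the 3003 pairs of tested nuclear members had a median Pearson r of 0.79 (quartiles 0.61 and 0.88), and 98.5% of the pairs were positive. After each group's mean was subtracted, the median was 0.86. The first principal component held 72.8% of their variance and the second 8.23%. Against the mean of the other nuclear members, 60 of 78 genes had r above 0.8, led by Cox8a, Uqcr10 and Cox6a1 (0.98 each). Only 4 had r below 0.5: Cox7a2l (-0.04), Ndufa4l2 (0.42), Cox4i2 (0.43) and Atp5g1 (0.44). Cox7a2l had the smallest SD of the 78 (0.20 on the log2 scale), at 114 to 119 FPKM in Has2_WT and 89.3 to 156 FPKM over all libraries, though Atp5h, at 114 to 200 FPKM (SD 0.24), spanned as wide a range and followed the others (r 0.92). These correlations share the libraries and their scaling, and are given as a description.

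The mt- genes that were listed high formed a separate pattern. The 7 mt- genes that were listed high (below) also moved together (median r 0.80 over 21 pairs, all positive), but the 546 pairs of one nuclear and one of these mt- genes had a median r of 0.07, with 58.1% positive. Their summed FPKM over all 13 mt- genes was 92777, 60493, 84772 and 70512 in Has2_WT, and 104452, 75210, 77707 and 87593 in Has2_TG. It was 56043, 78291, 80254 and 109072 in PH20_WT, and 87879, 59800, 61011 and 101816 in PH20_TG. Has2_TG3, the library with the lowest nuclear sum, was not the lowest of its group here, and PH20_TG3, second highest in the nuclear sum, was among the 4 lowest of all in the mt- sum. The nuclear sum was therefore between 8.36% (Has2_WT1) and 27.8% (PH20_TG3) of the mt- sum.

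**Figure D2:**
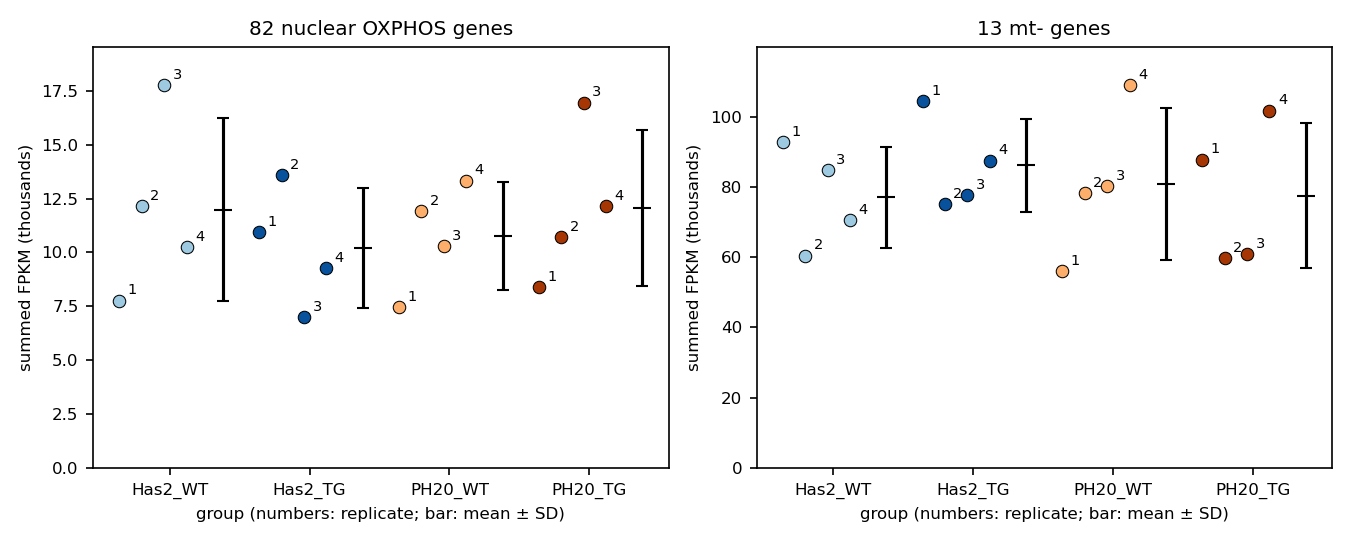
Summed FPKM of the 82 nuclear (left) and 13 mt- (right) OXPHOS genes in each library, with the group's mean and SD (n = 4) as a bar. All groups overlap in both panels, and libraries that are high on the left, such as Has2_WT3 and PH20_TG3, are not the highest on the right.

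The nuclear level varied with some lists of other mitochondrial genes and of cell types, and not with others. Across the 16 libraries the mean log2 level of the nuclear members had r = 0.92 with the assembly factors of the complexes (rho 0.89), 0.89 with electron carriers and coenzyme Q genes (rho 0.86), 0.83 with mitochondrial carriers (rho 0.80) and 0.78 with the machinery of mitochondrial DNA expression (rho 0.68). With the adipocyte genes r was 0.68 (rho 0.59), with beige and brown adipocyte genes 0.64 (rho 0.60), with macrophage genes -0.56 (rho -0.49) and with progenitor genes -0.58 (rho -0.53). With skeletal muscle genes it was 0.38 (rho 0.41), with TCA cycle and pyruvate dehydrogenase genes 0.67 (rho 0.57), with regulators of mitochondrial biogenesis 0.01 (rho 0.04), with B cell genes -0.33 (rho 0.06) and with endothelial genes 0.08 (rho 0.11). Without the 2 libraries farthest in the other measure, these values became 0.91, 0.86, 0.79, 0.72, 0.59, 0.63, -0.67, -0.53, 0.17, 0.45, 0.29, 0.06 and 0.54 in the same order. With Cox7a1 and Cox8b, of the COX forms left out of the members, r was 0.91 (rho 0.94, and 0.88 without the 2 farthest). With the mean of short protein-coding genes r was 0.73 (rho 0.77, and 0.55 without the 2 farthest), and with the 7 mt- genes -0.04 (rho -0.01, and -0.34 without the 2 farthest). These scores share libraries and depth, and their part in the OXPHOS level was not tested.

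Between Has2_TG and Has2_WT few nuclear OXPHOS genes passed the test. Of 78 tested nuclear members, 1 passed the unadjusted threshold of 0.05 (limma, two-sided) and was lower, and 0 were higher, against 3.75% lower and 6.25% higher among all 12606 genes tested. By sign, 70 members had a lower and 8 a higher mean log2 level in Has2_TG, with a median log2 fold change of -0.20 (quartiles -0.31 and -0.09), beside -0.03 for all genes. The nuclear members varied together (median r 0.79), so here and below their signs are not independent observations. No member passed after Benjamini-Hochberg adjustment (smallest adjusted p 0.428), and in 0 of 78 did the groups not overlap, which occurred in 6.19% of all genes. The median standard error of a member's log2 fold change was 0.29, and for 54 of 78 the 95% interval excluded a change of 2-fold in either direction. The median depended on single libraries: it was 0.00 without Has2_WT3 and -0.02 without Has2_TG3, but -0.41 without Has2_WT1, and 5 members were then called lower. Without Has2_TG1 6 members were called (5 lower, 1 higher), and with quantile normalization 7, all lower.

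The nuclear member called was Ndufs1, the largest subunit of complex I, which carries iron-sulfur clusters of the NADH-oxidising arm (chr1:63143596-63176833, minus strand, GRCm38). It was at 25.8, 26.1, 38.4 and 28.7 FPKM in Has2_WT and at 26.9, 23.0, 17.4 and 16.6 FPKM in Has2_TG. Of the 4 Has2_TG libraries 3 lay below all controls, and the groups overlapped through Has2_TG1. On the log2 scale the difference was -0.51 (SE 0.20, limma adjusted p = 0.428). The call was lost in a fit of all 16 libraries and without Has2_WT3 (log2 fold change -0.38), Has2_TG3 (-0.43) or Has2_TG4 (-0.41).

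In the other complexes the members with the smallest p did not pass the threshold. Sdha, the flavoprotein of complex II, was at 182, 230, 338 and 224 FPKM in Has2_WT and at 221, 186, 126 and 140 FPKM in Has2_TG. Its groups overlapped (log2 fold change -0.53, SE 0.24, limma adjusted p = 0.505). Uqcrb, the ubiquinone-binding subunit of complex III, was at 130, 184, 265 and 135 FPKM in Has2_WT and at 136, 143, 49.2 and 108 FPKM in Has2_TG. Here Has2_TG3 stood lowest (log2 fold change -0.76, SE 0.36, limma adjusted p = 0.530). Cox4i2 was at 5.73, 6.04, 4.34 and 3.39 FPKM in Has2_WT and at 1.21, 3.90, 2.51 and 4.01 FPKM in Has2_TG. The groups overlapped, and this low form of subunit 4 had a mean of 63.5 reads per library and a log2 fold change of -0.83 (SE 0.37, limma adjusted p = 0.507), while the common form Cox4i1 was at 0.10 (SE 0.26). Atp5a1, the alpha subunit of the ATP synthase head, had a log2 fold change of -0.38 (SE 0.23, limma adjusted p = 0.651). By complex, the median log2 fold change was -0.19 in I, -0.33 in II, -0.36 in III, -0.17 in IV and -0.17 in V.

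**Figure D3:**
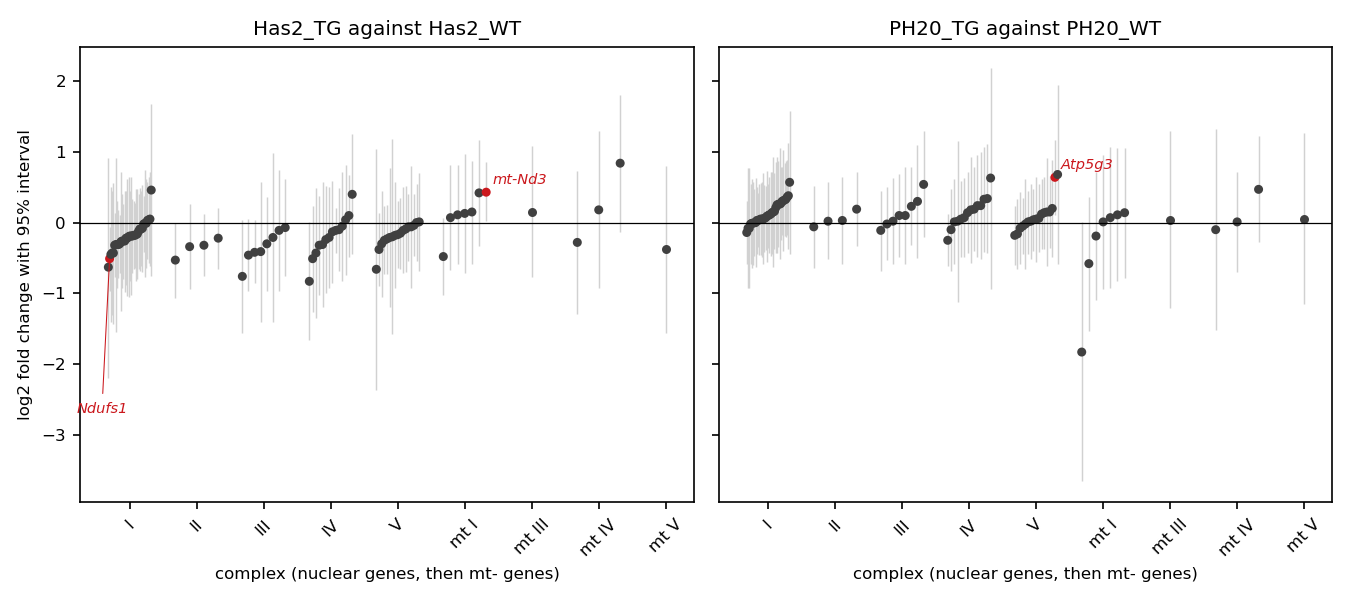
Log2 fold change of each tested OXPHOS gene, transgenic against control, with its 95% interval (grey), by complex, for the Has2 (left) and the PH20 study (right). Points in red passed an unadjusted p of 0.05 (Ndufs1 and mt-Nd3 on the left, Atp5g3 on the right), and nuclear points lie mostly below 0 on the left (70 of 78) and above 0 on the right (62 of 78). The nuclear members varied together, so their signs are not independent.

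PH20_TG and PH20_WT likewise overlapped throughout. Of 78 nuclear members, 1 passed the unadjusted threshold and was higher, and 0 were lower, against 3.20% higher and 3.39% lower among 12532 genes tested. By sign 62 members were higher and 16 lower in PH20_TG (median log2 fold change 0.09, quartiles 0.01 and 0.23, beside 0.01 for all genes). None passed after adjustment (smallest adjusted p 0.702), in 0 of 78 did the groups not overlap (4.54% of all genes), and for 65 of 78 the 95% interval excluded a 2-fold change. The median was -0.07 without PH20_TG3 and -0.05 without PH20_WT1, and it was -0.21 when B cell genes entered as a covariate. Without PH20_TG1, the library with no Spam1 read, it was 0.24, with 5 members higher.

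The nuclear member called was Atp5g3, the main subunit c gene here (chr2:73908447-73911326, minus strand). It was at 98.0, 126, 106 and 143 FPKM in PH20_WT and at 120, 197, 249 and 187 FPKM in PH20_TG. Of the 4 PH20_TG libraries 3 exceeded all controls, and PH20_TG1 lay within the controls. On the log2 scale the difference was 0.64 (SE 0.23, limma adjusted p = 0.702). The call was lost in a fit of all 16 libraries, without PH20_WT1 (0.55), PH20_WT3 (0.59), PH20_TG2 (0.60) or PH20_TG3 (0.49), and when B cell genes (0.42) or muscle genes (0.86) entered as a covariate. It was also lost without the 4 libraries high in B cell genes, which left PH20_WT2 and PH20_WT4 as PH20 controls. In the Has2 study Atp5g3 was at 63.2, 161, 261 and 128 FPKM in controls and at 101, 187, 114 and 133 FPKM in Has2_TG, so that the controls alone spanned the range of all other groups (log2 fold change -0.06, SE 0.39). The paralogs Atp5g2 and Atp5g1 had PH20_TG means of 74.8 ± 15.7 and 4.68 ± 1.18 FPKM against 84.5 ± 14.2 and 4.56 ± 0.394 FPKM in PH20_WT (SD, n = 4).

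The members of the other complexes with the smallest p in the PH20 study were Uqcr11, a small subunit of complex III, Cox7a2l and Sdhd, a membrane anchor of complex II. Uqcr11 was at 166, 205, 159 and 254 FPKM in PH20_WT and at 162, 229, 482 and 344 FPKM in PH20_TG. The higher mean came from PH20_TG3 and PH20_TG4 (log2 fold change 0.54, SE 0.33, limma adjusted p = 0.745). Cox7a2l had a log2 fold change of -0.25 (SE 0.16, limma adjusted p = 0.759) and Sdhd of 0.19 (SE 0.23, limma adjusted p = 0.863). In complex I the nuclear member with the smallest p was Ndufb6 (log2 fold change 0.36, SE 0.23, limma adjusted p = 0.761), which shares exonic bases with Smim27 on the other strand. The median log2 fold change was 0.10 in I, 0.03 in II, 0.10 in III, 0.16 in IV and 0.05 in V.

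Between the control groups of the studies, nuclear members were called lower about as often as genes at large, and none higher. In the fit of all 16 libraries, 5 of 78 nuclear members passed the unadjusted threshold as lower in PH20_WT than in Has2_WT and 0 as higher, against 5.61% lower and 4.66% higher of 12593 genes. They were Ndufs1 (log2 difference -0.63, SE 0.25), Sdha (-0.64, SE 0.27), Uqcrc2 (-0.59, SE 0.25), Uqcrc1 (-0.52, SE 0.22) and Atp5a1 (-0.51, SE 0.23), and the limma adjusted p ran from 0.427 to 0.479. Uqcrc1 and Uqcrc2 encode the core proteins of complex III, and 19.7% of the exonic bases of Uqcrc2 lie in Pdzd9 on the other strand. Ndufs1 was at 12.1, 28.0, 21.1 and 17.8 FPKM in PH20_WT, Sdha at 105, 206, 151 and 163 FPKM, and Uqcrc2 at 56.0, 107, 83.2 and 94.6 FPKM. For Uqcrc2 the Has2_WT values were 117, 113, 178 and 104 FPKM, and in each of these 5 genes PH20_WT1 was lowest and Has2_WT3 highest of the 8. Without PH20_WT1 none of the nuclear members passed, and without Has2_WT3 2 passed, both higher in PH20_WT, and without PH20_WT3 1 passed as lower. None passed without the 4 libraries high in B cell genes, which left Has2_WT3, Has2_WT4, PH20_WT2 and PH20_WT4 as controls. Over all 78 the signs were even (34 higher, 44 lower, median -0.07 beside 0.01 for all genes), and in 0 did the groups not overlap (6.34% of all genes). The same control mice enter the comparisons within each study, so the Has2 values and the control values of Ndufs1 and Sdha are not independent.

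For no nuclear member did the effects in the studies pass the test of their difference. For the difference of the Has2 and the PH20 log2 fold changes, 0 of 78 nuclear members passed the unadjusted threshold in either direction (limma, 0 adjusted; 4.03% of all genes positive, 3.68% negative). Here 69 members were negative and 9 positive, with a median of -0.34 beside -0.02 for all genes and a median SE of 0.41, and 27 of 78 intervals excluded a 2-fold difference. Without Has2_WT1 6 members were called, all negative, and with muscle genes as a covariate 14, and the median ran from -0.49 to -0.14 as single libraries were left out. The muscle score itself differed between groups (below). The nuclear members with the smallest p were Cox4i2 (-1.45, SE 0.84, limma adjusted p = 0.707) and Uqcrb (-0.86, SE 0.50, adjusted p = 0.713).

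The mitochondrial transcripts were listed in 2 separate ranges. Mean FPKM was 26338 for mt-Co1 and 16899 for mt-Cytb, 10426 for mt-Nd1, 7305 for mt-Nd4, 7133 for mt-Nd2, 6704 for mt-Nd6 and 4759.5 for mt-Nd5. It was 244 for mt-Co2, 205 for mt-Nd3 and mt-Atp6, 165 for mt-Co3, 91.0 for mt-Nd4l and 7.44 for mt-Atp8. The lowest of the first 7 was 19.5 times the highest of the other 6, in a genome that is transcribed as long polycistronic RNAs. The 6 low genes are neighbours and form 1 unbroken stretch, from mt-Co2 at MT:7013 to mt-Nd4l at MT:10173. For 5 of them, 97.6% to 99.9% of the stretches of 100 bases also occur in unprocessed pseudogenes on chr1 between 24611535 and 24616197 (minus strand, GRCm38), a nuclear copy of this part of the mitochondrial genome: Gm28661 of mt-Co2, Gm10925 of mt-Atp6, Gm28437 of mt-Co3, Gm28438 of mt-Nd3 and Gm10222 of mt-Nd4l. The other low gene, mt-Atp8, shares 0 of its 105 stretches with another annotated gene, but only annotated transcripts were searched. It lies between mt-Co2 and mt-Atp6. Whether the chr1 bases between their copies, Gm28661 (from 24614885) and Gm10925 (to 24614651), match mt-Atp8 was not tested. Of mt-Nd4 60.8% is shared with Gm28439 and of mt-Co1 30.8% with Gm29216. A read from an identical stretch has 2 equally good places, and STAR's gene counts use only reads with 1 place. How much of the low values this accounts for was not tested.

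**Figure D4:**
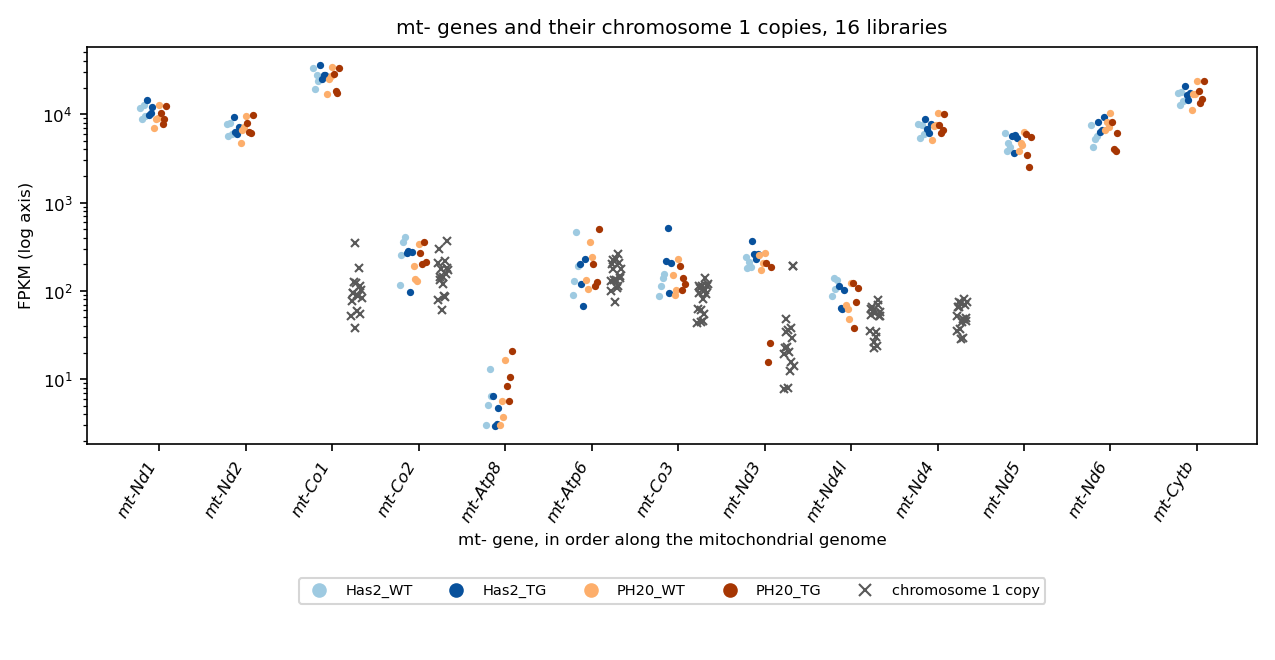
FPKM (log axis) of the 13 mt- genes in the order of the mitochondrial genome, as coloured points for each of 16 libraries, and of the chromosome 1 copy of 7 of them as crosses. The genes from mt-Co2 to mt-Nd4l lie far below their neighbours on both sides with mt-Co2, mt-Atp6, mt-Co3 and mt-Nd4l near the level of their copies, and 2 PH20_TG points of mt-Nd3 lie below 30 FPKM where its copy is at 190 and 192 FPKM.

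In the Has2 study 1 of 12 tested mt- genes passed the unadjusted threshold and was higher, and 0 were lower, against 6.25% higher and 3.75% lower of all genes. The median log2 fold change was 0.14 beside -0.03 for all genes, and 9 were higher by sign. The gene was mt-Nd3, a core membrane subunit of complex I (MT:9459-9806), which was at 241, 183, 211 and 188 FPKM in Has2_WT and at 370, 262, 228 and 264 FPKM in Has2_TG. Among Has2_TG, Has2_TG3 alone lay within the range of the controls (log2 fold change 0.43, SE 0.18, limma adjusted p = 0.474). The call was lost without any single library other than Has2_WT1 or Has2_TG3 (0.29 to 0.46). The 7 mt- genes listed high had log2 fold changes of 0.07 to 0.42 with SE of 0.31 to 0.50, and none passed. Of the low ones, mt-Co3, a core subunit of complex IV, was at 87.2, 112, 139 and 155 FPKM in Has2_WT and at 216, 509, 94.6 and 207 FPKM in Has2_TG (0.84, SE 0.43, limma adjusted p = 0.581). The values of mt-Nd4l (-0.48, SE 0.24, limma adjusted p = 0.574), mt-Co2 (-0.28, SE 0.45) and mt-Atp6 (-0.38, SE 0.53) had the other sign.

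In the PH20 study none of the 12 mt- genes passed (limma, 0 at the unadjusted threshold and 0 adjusted; median log2 fold change 0.03). Here mt-Nd3 had by far the largest difference. It was at 255, 170, 206 and 271 FPKM in PH20_WT and at 205, 15.5, 25.7 and 185 FPKM in PH20_TG, so that 2 libraries lay far below all others (log2 fold change -1.83, SE 0.81, limma adjusted p = 0.731). In the difference between the studies it was the only mt- gene past the unadjusted threshold (2.26, SE 0.89, limma adjusted p = 0.611; 1.84 and no longer called without PH20_TG3), with mt-Nd6, a subunit encoded on the other strand, next (1.00, SE 0.48, limma adjusted p = 0.656). Of mt-Nd6 PH20_TG2 and PH20_TG3 had 4009 and 3873 FPKM, where PH20_WT ranged from 6557 to 10308 FPKM. PH20_TG1 had 8119 FPKM and PH20_TG4 6194 FPKM. The control library Has2_WT2 was also low, at 4226 FPKM. Between the control groups 0 of 12 mt- genes passed, and mt-Nd4l had the smallest p (-0.68, SE 0.36, limma adjusted p = 0.524).

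In PH20_TG2 and PH20_TG3 most reads of mt-Nd3 and its nuclear copy were counted on the copy. Over the 345 bases compared, mt-Nd3 and Gm28438 differ at 1 base, T3C, counted from 1 at the first base of mt-Nd3, which is MT:9461. The first 30 bases of both, from GENCODE M21 transcripts, are shown with this base in capitals because it is the base that differs.

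mt-Nd3 (MT:9459-9488, plus strand): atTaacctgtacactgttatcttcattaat

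Gm28438 (chr1:24613090-24613119, minus strand): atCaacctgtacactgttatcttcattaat

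PH20_TG2 and PH20_TG3 had 107 and 149 reads on mt-Nd3 but 1307 and 1104 on Gm28438, so that mt-Nd3 took 7.57% and 11.9% of the reads of the pair. In the other 14 libraries it took 84.9% to 96.9%, with 51 to 414 reads on Gm28438. Together the pair had 1414 and 1253 reads in those libraries, within the 989 to 3664 of all 16. With the reads of each mt- gene and its copy summed, the log2 fold change of mt-Nd3 became -0.18 in the PH20 study and 0.42 in the Has2 study, neither past the threshold, and 0.61 for the difference, which passed. This sum was chosen after the data were seen, and the base that the mice of these libraries carry at MT:9461 was not analysed here. The other pairs split less sharply, though PH20_TG2 and PH20_TG3 had the lowest shares on the mt- gene in 3 of them: 42.4% and 56.1% for mt-Nd4l (61.2% to 73.5% elsewhere), 52.8% and 49.8% for mt-Co2 (54.8% to 75.9%) and 45.3% and 46.0% for mt-Atp6 (47.2% to 76.3%). Of mt-Co3 and Gm28437 the mt- gene took 89.4% in Has2_TG2, the library with 509 FPKM, and 50.3% to 68.2% elsewhere. Of mt-Atp6 and Gm10925 it took 70.2% to 76.3% in Has2_WT3, PH20_WT3 and PH20_TG4 and at most 52.3% in the others.

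**Figure D5:**
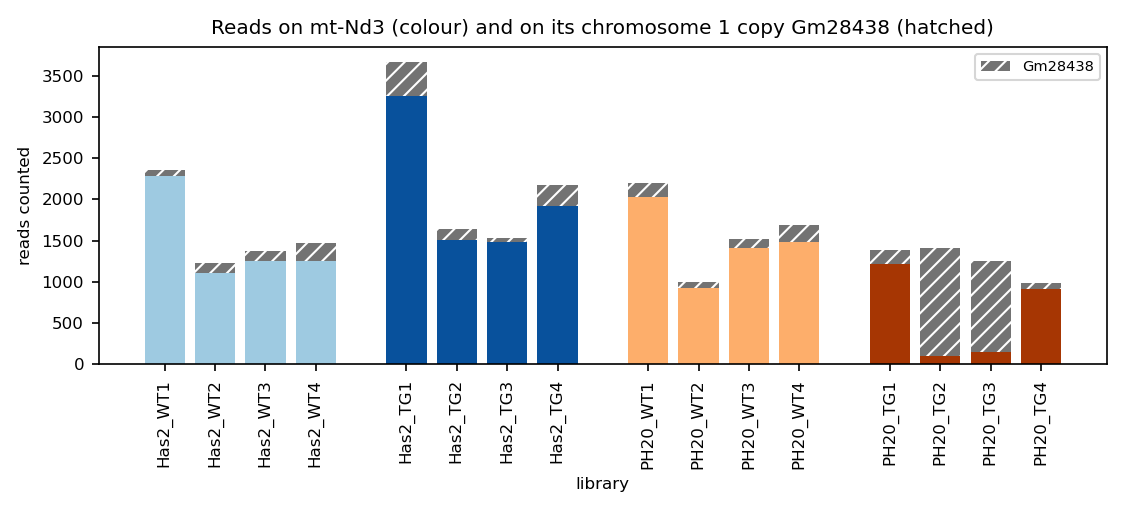
Reads counted on mt-Nd3 (coloured) and on its chromosome 1 copy Gm28438 (hatched), stacked, in each of 16 libraries. The stacks of PH20_TG2 and PH20_TG3 are of the same order as the others, but nearly all of their height is the hatched copy.

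The promoters of nuclear members held more matches to motifs of known OXPHOS regulators than promoters at large. RefSeq promoters of GRCm38.p6, 250 bases before to 50 after the start, were matched to 66 member genes with 71 promoters. The letters searched, on both strands, were GCGCATGCG and GCGCACGCG for NRF1, CCGGAAGT for ETS factors such as GABP (NRF2), TCAAGGTCA and TGAAGGTCA for the estrogen-related receptors (ERR), and AAGATGGC for YY1, all of them factors known to act on respiratory genes. NRF1 letters were in 18.3% of member promoters and in 4.59% of 21262 protein-coding promoters, and YY1 letters in 14.1% and 3.05%. ETS letters were in 7.04% (5 of 71 member promoters) and 5.15%, and ERR letters in 4.23% (3 of 71) and 0.621%. At least 1 of the motifs was in 39.4% and 12.5%. A match is a description of the letters only, and matches of 1 motif on both strands may overlap. The 250 bases before the start are shown for Atp5g3, the member called in the PH20 study, and for Ndufb4, an accessory subunit of complex I with matches to both ERR and NRF1, with the matches in capitals.

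Atp5g3 (chr2:73911327-73911576, minus strand): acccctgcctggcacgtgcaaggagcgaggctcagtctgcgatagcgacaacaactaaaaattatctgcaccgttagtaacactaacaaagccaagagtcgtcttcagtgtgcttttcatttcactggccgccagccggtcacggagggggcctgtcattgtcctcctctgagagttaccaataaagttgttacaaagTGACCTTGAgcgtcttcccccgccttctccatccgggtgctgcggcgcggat

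Ndufb4 (chr16:37654369-37654618, minus strand): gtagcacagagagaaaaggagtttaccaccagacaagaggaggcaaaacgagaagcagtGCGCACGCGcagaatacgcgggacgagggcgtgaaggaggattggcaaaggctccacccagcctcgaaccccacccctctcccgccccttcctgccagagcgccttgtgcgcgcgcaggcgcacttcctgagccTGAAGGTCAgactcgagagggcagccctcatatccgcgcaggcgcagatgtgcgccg

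In Atp5g3 the match is the ERR letters on the other strand, and in Ndufb4 the first match is NRF1 and the second ERR. Ndufs1 was not among the promoters matched.

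Genes that serve the complexes were described beside them. Their counts are to be read against the shares of all genes called, which were 3.75% lower and 6.25% higher in the Has2 study, 3.39% and 3.20% in the PH20 study, and 5.61% and 4.66% between controls. Of 18 genes of the TCA cycle and pyruvate dehydrogenase, which feed the chain with NADH and succinate, 8 fell in Has2_TG and 0 rose (median -0.45 beside -0.03 for all genes). Pdha1, a subunit of pyruvate dehydrogenase, fell from 172 ± 64.0 to 83.7 ± 20.4 FPKM (SD, n = 4, limma adjusted p = 0.152). Dlat, another subunit, had a log2 fold change of -0.82 (SE 0.25, limma adjusted p = 0.262). In PH20_TG 0 of the 18 passed (median 0.05), while 11 were lower in PH20_WT than in Has2_WT (5.61% of all genes), Pdha1 among them (-1.05, SE 0.28, limma adjusted p = 0.303). For the difference of the effects 2 passed, both negative. The same Has2_WT mice enter the Has2 comparison, the control comparison and this difference, so here and below their counts are not independent. No gene of these lists passed after limma's p-values were adjusted, in any comparison.

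Of 45 tested assembly factors, 4 fell and 1 rose in Has2_TG (median -0.21, beside 3.75% and 6.25% of all genes), among them Taco1, which helps to translate mt-Co1 (-0.60, SE 0.21, limma adjusted p = 0.362), and Cox10, which makes the heme of complex IV (-0.70, SE 0.25, limma adjusted p = 0.367). In PH20_TG 2 rose and 0 fell, near the 3.20% of all genes that were higher, Cox16 (0.49, SE 0.16, limma adjusted p = 0.684) and Ndufaf2 (0.45, SE 0.19, limma adjusted p = 0.731), which help to assemble complexes IV and I. Of the machinery of mitochondrial DNA expression, 3 of 23 fell in Has2_TG and 0 rose. Tfb1m, a methyltransferase of mitochondrial ribosomal RNA, was at -0.91 (SE 0.30, limma adjusted p = 0.319) and Supv3l1, a helicase of RNA decay, at -0.67 (SE 0.23, limma adjusted p = 0.347). In PH20_TG 1 of 24 rose, the DNA polymerase Polg (0.26, SE 0.11, limma adjusted p = 0.731), and Lrpprc, which stabilises mitochondrial mRNA, was at -0.25 (SE 0.14). Between controls 7 of 45 assembly factors were lower in PH20_WT than in Has2_WT and 0 higher (median -0.27). Of 24 genes of mitochondrial DNA expression 3 were lower and 1 higher, beside 5.61% and 4.66% of all genes.

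The small counts that follow stand beside the same shares of all genes: 3.75% lower and 6.25% higher in Has2_TG, 3.39% and 3.20% in PH20_TG. Of the regulators of mitochondrial biogenesis 1 of 12 fell in Has2_TG, the fatty acid receptor Ppara (-0.82, SE 0.28, limma adjusted p = 0.344), and Esrrg was at -0.92 (SE 0.49). In PH20_TG 1 of 11 fell, the coactivator Ppargc1b (-0.69, SE 0.21, limma adjusted p = 0.664), and Creb1 was at -0.28 (SE 0.20). The main coactivator of the programme, Ppargc1a, ranged from 1.14 to 4.86 FPKM in Has2_TG and from 1.25 to 2.58 in Has2_WT. Of 18 electron carrier and coenzyme Q genes, 2 fell in Has2_TG, Etfdh, which passes electrons from fatty acid oxidation to ubiquinone (-0.69, SE 0.25, limma adjusted p = 0.390), and Coq9 of coenzyme Q synthesis (-0.51, SE 0.22, limma adjusted p = 0.490). None passed in PH20_TG, where Coq2 was at 0.25 (SE 0.12) and Coq8a at -0.52 (SE 0.32). Of 12 mitochondrial carriers 0 passed in Has2_TG, where the ATP/ADP carrier Slc25a5 was at -0.38 (SE 0.22) and the citrate carrier Slc25a1 at -0.76 (SE 0.46). In PH20_TG 1 rose, the dicarboxylate carrier Slc25a10 (0.78, SE 0.32, limma adjusted p = 0.722), and the pyruvate carrier subunit Mpc2 was at 0.51 (SE 0.35). Between controls, 2 of 12 regulators, 3 of 18 electron carrier genes and 2 of 12 mitochondrial carriers were lower in PH20_WT, and 0 higher.

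Genes of other cells moved with the same groups, to be read against the same shares of all genes. Of 11 tested beige and brown adipocyte genes 5 fell in Has2_TG (median -0.68, 3.75% of all genes lower), while in PH20_TG 1 of 9 rose (3.20% of all genes higher). Between controls, 5 of the 11 were lower in PH20_WT than in Has2_WT (median -0.79, 5.61% of all genes lower) and 0 higher. The same Has2_WT mice enter this count and that of Has2_TG. Of 10 progenitor genes 8 rose in Has2_TG (median 1.55), and of 8 macrophage genes 4 (median 0.67). Of 10 B cell genes 4 fell in Has2_TG and 5 in PH20_TG (medians -2.92 and -3.02). Of 17 skeletal muscle genes 15 fell in PH20_TG (median -3.60), and 0 of 16 passed in Has2_TG. With the skeletal muscle score as a covariate the median of the nuclear OXPHOS genes was 0.46 in the PH20 study, with 4 members higher, and the control comparison had 16 members lower. The muscle score was 2.96 to 4.91 in PH20_WT, -1.37 to 3.22 in PH20_TG and 0.03 to 2.05 in Has2_WT. In Has2_TG it was 3.53, 4.67, -1.91 and -1.89 in replicates 1 to 4. The score thus separated PH20_WT from Has2_WT and, with an overlap, from PH20_TG, while it varied widely within Has2_TG. These fits do not fully separate muscle content from group. Without the 4 libraries high in B cell genes the median was -0.44 in the Has2 study, with 5 members lower. Has2_WT3, the library with the highest nuclear sum, and Has2_WT4 were then the only Has2 controls left. With all other libraries kept, the median was 0.00 without Has2_WT3.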

How the data were processed

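RNA of 16 iWAT samples was sequenced. Per the methods, the authors checked reads with FastQC 0.11.9, mapped them with STAR 2.7.9a to GRCm38 with GENCODE annotation, counted reads per gene with STAR, summarised quality with MultiQC 1.12 and tested counts with DESeq2. They deposited FPKM with gene lengths. FPKM times length fell on whole multiples of 1 read in 100% of values (tolerance 0.01), and FPKM used a library total of 0.886 to 1.14 times the reads on genes.

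Genes with a mean of at least 50 recovered reads were tested on log2(FPKM + 0.1) with limma 3.58.1 (R 4.3.3, variance trend, two-sided), a scale that understates changes of low genes. Each study was fitted on its own 8 libraries, and the control comparison and the difference between studies on all 16. A call was an unadjusted p under 0.05, the threshold of the study, with Benjamini-Hochberg adjustment over all genes beside it. The fit was tested on simulated data. The labels do not say how replicates were drawn, so p-values measure only the spread between these samples. Counts of 0 allow up to 3 reads and cover counting error only. Named are the members called, the smallest p per complex, the highest and lowest members, all mt- genes, isoform families, and the smallest p per list, for control mice and for the difference; others were named after their values were seen. Members and lists were chosen with earlier results of these data known. Shared sequence and exons were read from GENCODE M21.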

Additional observations from a re-analysis of the deposited data

Results flagged for a closer look

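In all, 3 values stood apart from the other 3 libraries of their group, of 124 groups examined for 31 measures, where chance marks about 5% of groups. Ndufa4l2 was at 3.36 FPKM in PH20_TG1 against 11.8 to 13.5 FPKM in the other PH20_TG libraries. PH20_TG1 also had the highest macrophage genes (1529.8 FPKM summed) and no Spam1 read, and their part in the value was not tested. mt-Nd5 was at 3677 FPKM in Has2_TG2 against 5398 to 5746 FPKM. mt-Co2 was at 97.8 FPKM in Has2_TG3 against 270 to 281 FPKM, a library in which its chromosome 1 copy Gm28661 was also the lowest of all (60.9 FPKM).

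For mt-Nd3 the difference between the log2 fold changes of the studies was 2.26, past the unadjusted threshold but with a limma adjusted p = 0.611, and it was no longer called without PH20_TG3 (1.84). It is 0.61, smaller but still past the unadjusted threshold, when reads of mt-Nd3 and Gm28438 are summed.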

How the results depend on the processing

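With 4 libraries a group, the counts of calls moved with the settings, and the cause was not tested. Covariates from adipocyte genes, the omission of the 4 libraries high in B cell genes, and the summing of mt- genes with their chromosome 1 copies were chosen after seeing the data. Without the 4 libraries the controls left were Has2_WT3, Has2_WT4, PH20_WT2 and PH20_WT4. The muscle score itself differed between groups, so fits with it as a covariate do not fully separate muscle content from group. In the Has2 study 1 nuclear member passed, and 2 did with a pseudocount of 1, 7 with quantile normalization, 2 with scaling to reads outside the mitochondrial chromosome, 3 with voom weights, and 5 each with muscle, B cell or adipocyte genes as a covariate and without the 4 libraries. Of its mt- genes 1 passed, and 2 did with the muscle covariate and 0 with no minimum of reads, all 16 libraries, the B cell covariate, summed copies, or without the 4 libraries. In the PH20 study 1 nuclear member passed, and 4 did with the muscle covariate, 3 with the adipocyte covariate (1 higher, 2 lower), and 0 with all 16 libraries, the B cell covariate or without the 4 libraries. Of its mt- genes 0 passed, and 1 did with quantile normalization, scaling outside the mitochondrial chromosome or all 16 libraries, and 2 with voom weights, and their median was 0.41 with the muscle covariate. Between controls 5 nuclear members passed, and 16 did with the muscle covariate and 0 without the 4 libraries, and 1 mt- gene passed with voom weights against 0. For the difference between studies 0 nuclear members passed, and 14 did with the muscle covariate, and of the mt- genes 1 passed, and 2 did with a pseudocount of 1, a mean FPKM of at least 1, scaling outside the mitochondrial chromosome, voom weights or the adipocyte covariate, and 0 with the muscle covariate or without the 4 libraries. Sdhd in the PH20 study turned from 0.19 to -0.18 with the B cell covariate and to -0.11 without the 4 libraries.

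Without single libraries the count of nuclear members ranged from 0 (without Has2_TG3) to 6 (without Has2_TG1) in the Has2 study, from 0 to 5 in the PH20 study, from 0 to 7 between controls and from 0 to 6 for the difference. Counts of mt- genes ranged from 0 to 2, 0 to 1, 0 to 1 and 0 to 2 in the same order. Medians of the nuclear members ranged from -0.41 to 0.00, -0.07 to 0.24, -0.28 to 0.13 and -0.49 to -0.14.

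Replicate numbers did not pair the samples in the Has2 study, where deviations of same-numbered libraries correlated at -0.18 to 0.13. In the PH20 study the values were 0.35 and 0.42 for replicates 1 and 2, each best matched with its own number. For replicates 3 and 4 they were -0.03 and -0.04, and neither was best matched with its own number. With a replicate block 0 nuclear members and 1 mt- gene passed in the Has2 study, 1 and 1 in the PH20 study, 5 and 1 between controls, and 1 and 1 for the difference.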
